A study of Mus musculus with 6 samples.

Results

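The genes described here are 47 cell cycle and DNA replication genes, measured in mouse small intestinal enteroids that over-express either GFP or PLAGL2, a DNA-binding zinc finger protein related to PLAG1. They were taken by symbol from a list of 47 names, and all 47 were among the 40769 genes of the table and among the 16314 genes that could be tested. By role they were 13 S phase genes (the Mcm, Gins, Rrm genes, Pcna and Cdc6), 6 other genes of the entry into S phase (Ccne1, Ccne2, Cdk2, Tyms, Cdt1, Cdc45), 5 transcriptional regulators (E2f1, E2f2, E2f8, Foxm1, Mybl2) and 23 mitotic genes. Enteroids are epithelial cultures with crypt-like buds, grown here from C57BL/6 mice in Matrigel and serum-free ENR medium. All lines carried a piggyBac transposon for constitutive expression, with GFP in the control line and with PLAGL2 in clone 1, labelled low, and clone 3, labelled high. Each line is a single transfected culture, sampled once at passage 5 and once at passage 7, which gives 6 libraries, and nothing else was given to the cells.

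In dividing cells, E2F factors turn on genes for DNA synthesis as a cell enters S phase, while B-Myb and FoxM1 with the MuvB complex turn on mitotic genes later in the cycle. MCM proteins form the helicase that is loaded on origins by Cdc6 and Cdt1 and is activated with Cdc45 and the GINS complex. In the intestine, division is confined to stem cells and transit-amplifying cells of the crypt, and it stops as cells mature into enterocytes and other differentiated types. In bulk RNA, fewer cells of a type and less RNA per cell cannot be told apart.

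Library totals recovered from the RPKM values (reads per kilobase of exon, scaled to library size) lay between 13779306 and 17319950 reads, and were lower at passage 7 than at passage 5 in every line. Plagl2 itself had RPKMs of 22.8 and 23.1 in GFP (passages 5 and 7), 30.9 and 26.5 in clone 1, then 37.2 and 37.2 in clone 3, so that the 3 lines did not overlap and stood in the order of their labels. The species of the introduced PLAGL2 is not given in the sources used, and reads of a sequence that differs from mouse Plagl2 would not all be in these values. The summed RPKM of 7 epithelial markers was 1857 to 1977 over the libraries, and of 11 non-epithelial markers Col3a1 and Cdh5 were listed at 0 in every library. The members were well covered, with 140 to 17977 reads per gene and library, for which counting alone gives an SD of 8.45% to 0.746%. RPKM depends on the exon length used, and the sum of a member's transcript values was 0.529 to 8.69 times its gene value (Ccnb1 had the highest ratio), so levels are compared between libraries and not between genes.

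Most cell cycle genes were higher at passage 7 than at passage 5. Between passage 7 and passage 5, compared within the lines, 34 of 47 members rose and 0 fell past an adjusted p of 0.05, in a comparison in which 6.81% of all genes tested rose and 5.3% fell. All 47 members had a log2 change above 0, against 64.4% of all genes, and their median change was 0.32, against 0.09 for all genes on the same log2(RPKM + 0.5) scale. The S phase genes had a median change of 0.32 and 9 of 13 rose, the other S phase entry genes a median of 0.32 with 4 of 6, the regulators 0.21 with 2 of 5, and the mitotic genes 0.34 with 19 of 23. At an unadjusted p under 0.05 the members counted 42, with 22.3% of all genes on the higher side.

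**Figure D1:**
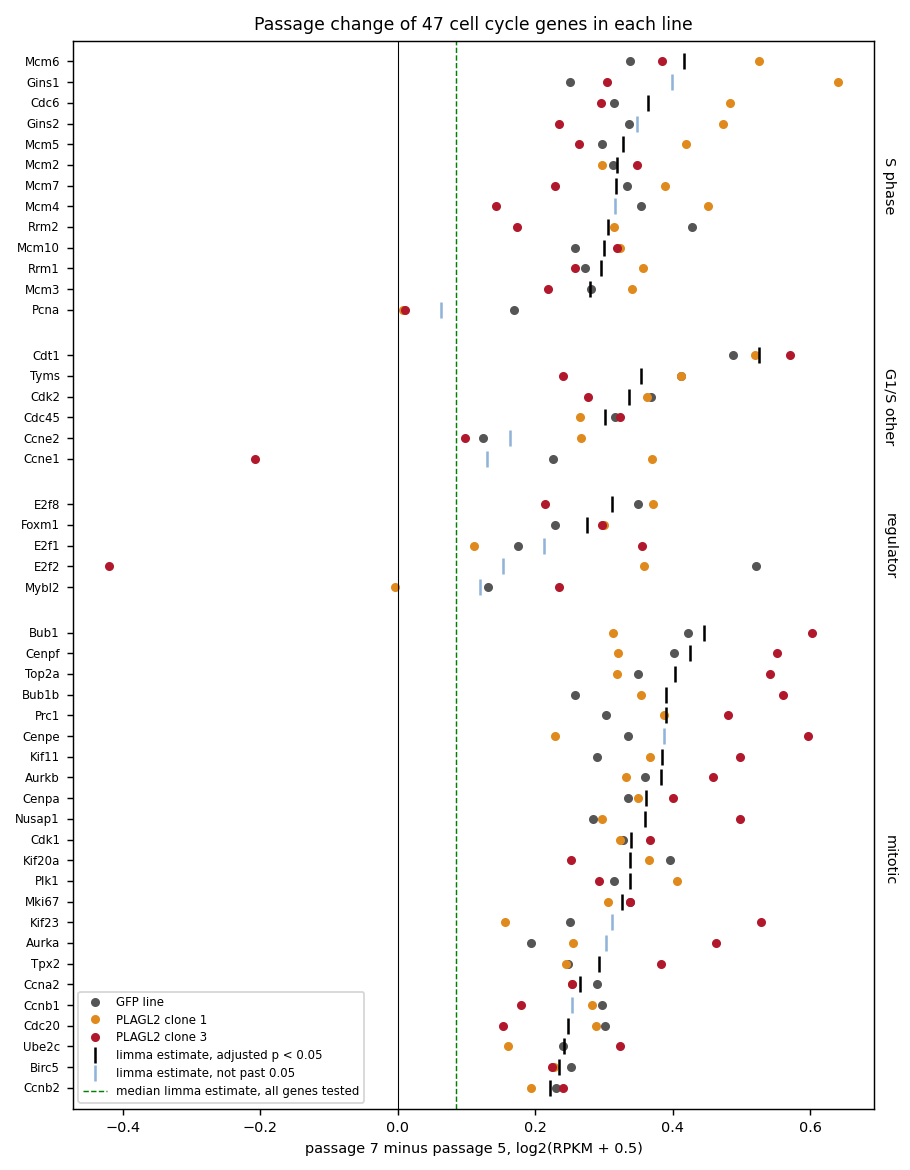
Change of each member from passage 5 to passage 7 (x axis, difference in log2(RPKM + 0.5)) in the GFP line, clone 1 and clone 3 (dots, 1 library pair each), with the limma estimate over the lines as a bar. Nearly all dots lie to the right of 0, and E2f2 and Ccne1 in clone 3 lie to the left of it.

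The separation of the passages was visible in single libraries. For 41 of 47 members every passage 7 library lay above every passage 5 library, as it did for 24.5% of all genes tested. These were 11 of 13 S phase genes, 5 of 6 other S phase entry genes, 3 of 5 regulators and 22 of 23 mitotic genes, the exceptions being Pcna, Rrm2, Ccne1, E2f2, Mybl2 and Plk1. Within the GFP line 47 of 47 members were higher at passage 7, within clone 1 46 and within clone 3 45, where 62.2%, 61.4% and 60.9% of all genes were higher.

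Cdt1, which loads the MCM helicase with Cdc6 (chromosome 8, 122568015 to 122573554, plus strand, mm10), had the largest change of all members. Its RPKM went from 24.1 to 33.9 in GFP, from 25.1 to 36.1 in clone 1 and from 23.0 to 34.4 in clone 3. All passage 7 libraries lay well above all passage 5 libraries, and the lines were alike. The log2 change was 0.53 (SE 0.04, adjusted p = 0.0131).

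Among the helicase subunits, Mcm6 (chromosome 1, 128331590 to 128359664, minus strand) changed most, from 43.1 to 54.6 RPKM in GFP, 40.5 to 58.6 in clone 1 and 41.1 to 53.8 in clone 3. The passages did not overlap, and clone 1 had both the lowest and the highest value. Its log2 change was 0.42 (SE 0.05, adjusted p = 0.0213). The subunit genes Mcm2, Mcm3, Mcm5 and Mcm7, with Mcm10, which acts in origin firing, rose by 0.28 to 0.33, and Mcm4 had 0.32 with an adjusted p of 0.0558. The ribonucleotide reductase subunits, which make deoxyribonucleotides, rose as well, Rrm1 by 0.30 and Rrm2 by 0.31, as did the licensing factor Cdc6 by 0.36. Gins1 and Gins2, of the GINS complex, had changes of 0.40 and 0.35 with adjusted p of 0.0701 and 0.0576. Gins1 had the fewest reads of all members, and 67.3% of the Gins2 exon bases also belong to Gse1 on the other strand.

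Pcna, the sliding clamp of the replication fork (chromosome 2, 132249162 to 132253314, minus strand), stood apart from the other S phase genes. Its RPKM was 36.4 and 41.0 in GFP at passages 5 and 7, 41.2 and 41.4 in clone 1, and 42.1 and 42.4 in clone 3. The GFP passage 5 library was the lowest, and within each clone the passages were nearly level. The log2 change was 0.06 (SE 0.05, adjusted p = 0.406). Reads of Pcna could be shared with the annotated copies Pcna-ps1 and Pcna-ps2, and Ccnb1, Ccnb2 and Tyms have such copies too.

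Of the other genes of S phase entry, Tyms (thymidylate synthase) rose by 0.35, Cdk2 by 0.34 and Cdc45 by 0.30. Ccne1 and Ccne2, the cyclin E genes that partner Cdk2, did not pass. Ccne1 (chromosome 7, 38097984 to 38107534, minus strand) had RPKMs of 6.20 and 7.33 in GFP, 5.42 and 7.16 in clone 1, and 5.66 and 4.83 in clone 3, so that it was higher at passage 7 in GFP and clone 1 and lower in clone 3. Its log2 change over the lines was 0.13 (SE 0.13, adjusted p = 0.523), and that of Ccne2 was 0.16 (adjusted p = 0.176).

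Of the regulators, 2 of 5 passed. E2f8, a repressor of E2F targets, rose by 0.31 (adjusted p = 0.0394) and Foxm1, the activator of mitotic genes, by 0.28 (adjusted p = 0.0346). E2f1 had a change of 0.21 (adjusted p = 0.132) and Mybl2, which encodes B-Myb, 0.12 (adjusted p = 0.314). E2f2, an activator E2F (chromosome 4, 136172394 to 136196057, plus strand), had RPKMs of 12.03 and 17.5 in GFP, 11.8 and 15.2 in clone 1, and 18.4 and 13.6 in clone 3. Clone 3 alone was higher at passage 5 than at passage 7, and its passage 5 library was the highest of all. The change over the lines was 0.15 (SE 0.20, adjusted p = 0.621).

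**Figure D2:**
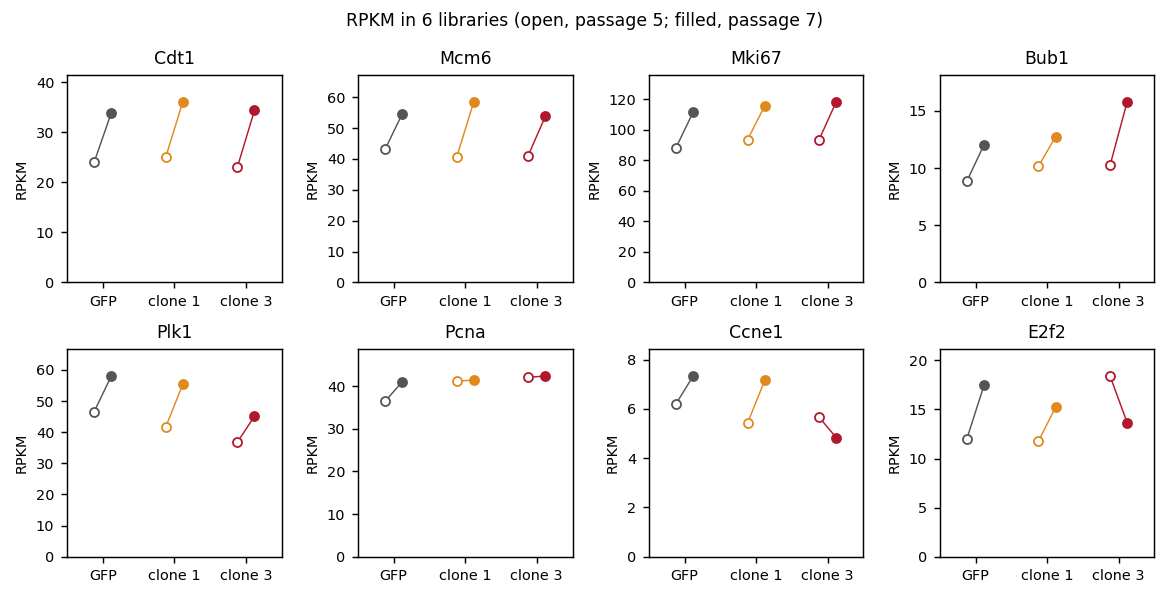
RPKM (y axis from 0) of 8 members in the GFP line, clone 1 and clone 3 at passage 5 (open) and passage 7 (filled), 1 library per dot. Cdt1, Mcm6, Mki67 and Bub1 step up in every line, Pcna is nearly level in the clones, and Ccne1 and E2f2 step down in clone 3.

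Most mitotic genes rose with passage. Mki67, the proliferation marker Ki-67 that coats mitotic chromosomes (chromosome 7, 135689784 to 135716361, minus strand), went from 88.2 to 111.5 RPKM in GFP, 93.4 to 115.6 in clone 1 and 93.5 to 118.3 in clone 3. The passages did not overlap and the lines differed little. Its log2 change was 0.33 (SE 0.03, adjusted p = 0.0180). Bub1, a kinase of the spindle checkpoint (chromosome 2, 127801122 to 127831865, minus strand), had the largest change of the group, from 8.87 to 12.1 RPKM in GFP, 10.2 to 12.7 in clone 1 and 10.2 to 15.8 in clone 3. Here the clone 3 passage 7 library was the highest by far. The log2 change was 0.45 (SE 0.07, adjusted p = 0.0339).

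The kinetochore protein gene Cenpf rose by 0.43, Top2a, which untangles DNA strands, by 0.40, and Bub1b, another checkpoint kinase, by 0.39. Prc1, which bundles the midzone microtubules, rose by 0.39, Kif11, the motor that separates the spindle poles, by 0.38, and Aurkb, the kinase of the chromosomal passenger complex, by 0.38. Cdk1, the kinase that drives entry into mitosis, and Plk1, a polo kinase, both rose by 0.34. The smallest rises of the group were those of Ccnb2, a cyclin partner of Cdk1, at 0.22, and of Birc5, a passenger complex subunit, at 0.23. The other 4 did not pass: Ccnb1 (adjusted p = 0.0726), Aurka (0.0546), Kif23 (0.0793) and Cenpe (0.0543), with changes of 0.25 to 0.39. Exons of other genes cover 29.3% of Kif20a (Cdc23) and 22.8% of Ube2c (Tnnc2), and no source used here says whether strand was counted.

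The count of 34 depended on which libraries entered the fit. Without either GFP library or either clone 1 library 0 members passed, as did 0 of all genes, in fits with 1 residual degree of freedom and lowest member adjusted p of 0.0828 to 0.122. Without either clone 3 library fewer members, and fewer of all genes, passed than in the main fit. The median change stayed between 0.28 and 0.36 for S phase genes and between 0.31 and 0.35 for mitotic genes in these fits. A library left without its partner is taken up by its line term, so each of these fits rests on the passage change of the other lines. With median-ratio scaling, which moved the median of all genes from 0.09 to 0.02, 20 members rose beside 2.83% of all genes, and Pcna had -0.02. With no filter on low genes 12 rose beside 0.931%, and with limma-voom on the recovered reads 41 rose beside 16.8%. Of the calls over all genes in the comparison, 56.3% were higher in the main analysis, 28.5% with median-ratio scaling, 37.7% without the filter and 46.5% with quantile normalization.

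Enterocyte, crypt stem cell, enteroendocrine and tuft cell markers moved with passage beside the cell cycle genes. All 8 enterocyte markers fell, with a median log2 change of -1.17, and their summed RPKM was 5683 to 7329 at passage 5 and 2735 to 3165 at passage 7. Sis, the brush border enzyme sucrase-isomaltase, went from 917.5 to 374.5 RPKM in GFP, 836.6 to 340.7 in clone 1 and 866.8 to 432.3 in clone 3 (log2 change -1.20, SE 0.08, adjusted p = 0.0109). All 4 crypt stem cell markers rose, with a median of 0.66, and Lgr5 went from 25.7 to 41.3 RPKM in GFP, 38.8 to 55.0 in clone 1 and 39.2 to 75.6 in clone 3. The summed RPKM of the 5 Paneth cell markers was 2108 and 2209 in GFP at passages 5 and 7, 1902 and 2102 in clone 1, then 956.7 and 1278 in clone 3, higher at passage 7 in each line, with 1 marker called higher (Mmp7). That of the 6 goblet cell markers was 1456 and 1174, 934.7 and 872.8, and 474.8 and 519.8 in the same order, with 1 marker called lower (Clca1). Of the 7 epithelial markers, Krt20 (log2 change -0.79) and Vil1 (-0.39) fell, Krt18 rose by 0.39 and the other 4 did not pass. The summed RPKM of the 5 enteroendocrine markers was 215.7 to 249.6 at passage 5 and 290.2 to 439.8 at passage 7, that of the 5 tuft cell markers 7.44 to 9.78 and 11.6 to 14.0, and that of the 11 non-epithelial markers 6.00 to 7.89 and 7.98 to 10.7, most of it Vim. All 5 enteroendocrine markers had changes above 0, with 3 called higher and a median of 0.56. All 4 tuft cell markers tested had changes above 0, with 2 called higher and a median of 0.525. Of 2 non-epithelial markers tested, 1 was called higher. Mitochondrially encoded genes held 10.67% to 11.18% of the RPKM sum at passage 5 and 12.17% to 13.03% at passage 7. The part of these markers, of mitochondrial RNA and of depth in the change of the cell cycle genes was not tested.

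**Figure D3:**
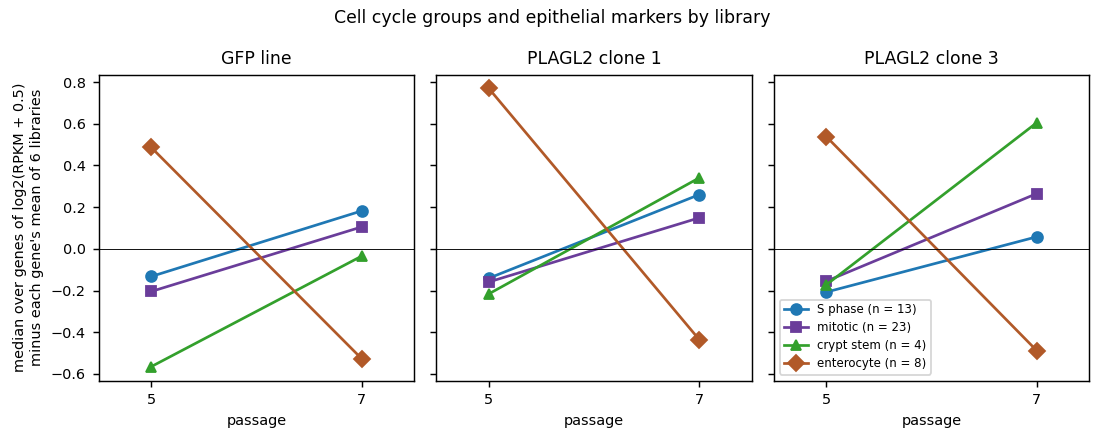
Median over the genes of a group of log2(RPKM + 0.5), after subtracting each gene's mean over the 6 libraries (y axis), at passages 5 and 7 in each line. S phase, mitotic and crypt stem groups step up and the enterocyte group steps down in every line, and in clone 3 the mitotic group steps up further than the S phase group.

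The wider cell cycle machinery was followed through 122 matched genes of 11 lists. Of these 59 rose, 1 fell and 62 did not pass, and their median change was 0.27. Of all genes tested 6.81% rose and 5.3% fell, with a median change of 0.09. All 8 condensin and cohesin genes rose (median 0.30), as did 13 of 15 spindle and cytokinesis genes (0.33), 15 of 23 replication fork genes (0.31) and 8 of 12 kinetochore and checkpoint genes (0.34). Ndc80, the microtubule-binding subunit at the kinetochore, went from 7.80 to 11.7 RPKM in GFP, 7.79 to 11.98 in clone 1 and 8.40 to 12.7 in clone 3, a log2 change of 0.57 (SE 0.05, adjusted p = 0.0153). Pold1, the catalytic subunit of DNA polymerase delta, rose by 0.49 (adjusted p = 0.0232). Pola1, of the DNA polymerase alpha-primase complex, rose by 0.48 (adjusted p = 0.0248).

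Of the origin licensing genes 5 of 13 rose (13 had values above 0), of the nucleotide and histone supply genes 3 of 9 (8 above 0), of the APC/C and SCF genes 3 of 9 (8 above 0), of the other E2F and DREAM genes 1 of 11 (E2f4), and of the mitotic entry genes 0 of 5 (lowest adjusted p = 0.0596). Among 10 genes of G1 entry, 3 rose: Myc by 0.66 (adjusted p = 0.0186), Cdk6 by 0.57 (0.0438) and Cdk4 by 0.28 (0.0241), while the D cyclins Ccnd1, Ccnd2 and Ccnd3 had changes of 0.20, -0.11 and 0.02. Cdkn2b, which encodes the Cdk4 and Cdk6 inhibitor p15, was the 1 gene that fell. Its RPKM went from 48.7 to 30.1 in GFP, 42.6 to 25.1 in clone 1 and 47.3 to 24.3 in clone 3, a log2 change of -0.79 (SE 0.06, adjusted p = 0.0134). Cdkn1a, the p53 target p21, had a change of -0.83 (adjusted p = 0.0549), with 32.5 and 18.0 RPKM in GFP, 41.6 and 16.9 in clone 1, and 31.2 and 24.0 in clone 3.

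**Figure D4:**
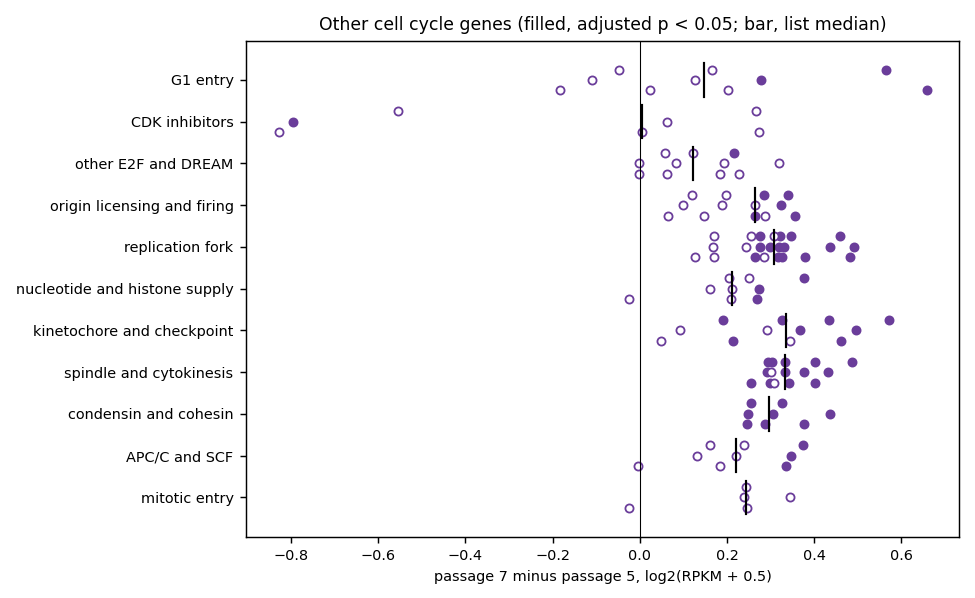
Change from passage 5 to passage 7 (x axis, log2(RPKM + 0.5)) of the 122 other cell cycle genes by list, filled where the adjusted p was under 0.05, with the list median as a bar. Condensin and cohesin genes are all filled and to the right, and Cdkn2b is the filled dot on the left among the CDK inhibitors.

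Because mitotic and S phase genes changed side by side, their promoters are shown for the letters of the elements known to drive each wave. Of the 47 members 38 had an entry in RefSeq's promoter windows (GRCm38.p6, which is mm10), each from 250 bases before to 50 bases after the gene start. On both strands, the cell cycle homology element CHR was searched as TTTGAA or TTCGAA, the NF-Y box as CCAAT, and the E2F site as TTTCCCGC, TTTGGCGC, TTTCGCGC or TTTGCCGC, where matches may overlap. CHR letters were in 15 of 19 mitotic windows and 2 of 10 S phase windows, against 19.4% of 27025 windows of all genes. CCAAT was in 17 of 19 mitotic and 9 of 10 S phase windows, against 37.9% of all. E2F letters were in 5 of 10 S phase windows and 1 of 19 mitotic windows (Cdk1), against 2.3% of all. These matches describe letters and not bound sites.

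The 150 bases before the RefSeq start are printed in gene orientation, with the matched letters in capitals. For the mitotic genes these are Cdk1 (chr10:69352913-69353062, minus strand), Cdc20, the activator of the anaphase-promoting complex (chr4:118437344-118437493, minus strand), and Mki67 (chr7:135716380-135716529, minus strand), chosen because they pair CHR with CCAAT.
Cdk1: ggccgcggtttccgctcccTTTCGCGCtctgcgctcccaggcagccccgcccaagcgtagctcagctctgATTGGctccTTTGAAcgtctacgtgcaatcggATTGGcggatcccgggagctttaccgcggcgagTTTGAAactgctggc
Cdc20: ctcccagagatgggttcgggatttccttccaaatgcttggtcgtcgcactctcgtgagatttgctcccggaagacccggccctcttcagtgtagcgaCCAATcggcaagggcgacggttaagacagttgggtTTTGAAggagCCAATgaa
Mki67: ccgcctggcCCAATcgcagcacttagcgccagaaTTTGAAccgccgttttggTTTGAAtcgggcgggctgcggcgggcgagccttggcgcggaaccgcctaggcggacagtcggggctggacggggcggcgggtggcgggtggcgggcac
Cdk1 holds 2 CHR matches and 2 CCAAT matches, with the E2F letters at its far end. For S phase they are Mcm6 (chr1:128359706-128359855, minus strand), with the largest change among the helicase subunits, Cdc6 (chr11:98908001-98908150, plus strand), and Pcna (chr2:132253181-132253330, minus strand), the member with the smallest change.
Mcm6: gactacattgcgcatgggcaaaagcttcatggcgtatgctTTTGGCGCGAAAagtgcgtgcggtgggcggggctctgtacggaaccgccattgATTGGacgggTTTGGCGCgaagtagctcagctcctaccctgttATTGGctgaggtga
Cdc6: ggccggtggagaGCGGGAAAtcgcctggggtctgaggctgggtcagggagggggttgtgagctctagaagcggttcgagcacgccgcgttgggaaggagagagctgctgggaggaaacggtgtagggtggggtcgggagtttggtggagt
Pcna: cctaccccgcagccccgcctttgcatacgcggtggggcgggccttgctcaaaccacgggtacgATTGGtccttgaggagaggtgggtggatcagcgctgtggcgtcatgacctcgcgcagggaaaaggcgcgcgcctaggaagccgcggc
Mcm6 holds 3 E2F matches, of which 2 overlap, and 2 CCAAT matches, Cdc6 holds 1 E2F match and Pcna 1 CCAAT match. RefSeq and GENCODE starts differ for some of these genes. The stretch printed for Cdc6 lies inside its GENCODE span (chromosome 11, 98907801 to 98923940), and that for Pcna lies largely inside its own. Those for Cdk1 and Cdc20 overlap their spans in part.

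PLAGL2 was the question of the study, and between lines 0 of 47 members passed. This held for clone 3 against GFP, in which 0.349% of all genes tested were called in either direction, for clone 1 against GFP (0.0306%), for clone 3 against clone 1 (0.0245%) and for both clones against GFP (0.00613%), with limma-trend. At an unadjusted p under 0.05 the members also counted 0 in each, where 9.04%, 3.95%, 5.13% and 5.95% of all genes were found. These fits have no passage term, so the members' own passage change enters their spread. The 0 therefore cannot show whether members differ less between lines than other genes. With passage as replicate block 10, 1, 6 and 1 members stood under that p, in the same order. Of 16314 genes, 1810 higher and 1367 lower then did for clone 3 against GFP, and 848 and 713 for clone 1 against GFP. For clone 3 against clone 1 these counts were 1027 and 893, and for both clones against GFP 1078 and 787. limma-voom on the recovered reads called 0 members in each of these comparisons too. The share of all genes it called in them is not given, so this 0 shows nothing particular to the members. The 95% intervals of clone 3 against GFP differed in width between members. That of Pcna ran from -0.09 to 0.34, that of Mki67 from -0.38 to 0.55, that of Plk1 from -0.83 to 0.13 and that of Bub1 from -0.35 to 0.92. With passage as replicate block the interval of Pcna was -0.03 to 0.28 and that of Mki67 -0.02 to 0.19. Those of Plk1, -0.48 to -0.22, and of Bub1, 0.05 to 0.52, then left out 0. Their adjusted p in that limma-trend fit was 0.0532 and 0.196.

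Values in clone 3 leaned down in S phase genes and up in mitotic genes, without passing the test. The median log2 difference from GFP was -0.07 for S phase genes, with 9 of 13 below 0, and 0.09 for mitotic genes, with 20 of 23 above 0, beside 0.01 for all genes. In clone 1, which shares the GFP libraries, the medians were 0.02 and 0.07. At passage 7 alone, clone 3 lay below clone 1 in 12 of 13 S phase genes and above it in 19 of 23 mitotic genes, where 46.9% of all genes were lower and 52.5% higher, from 1 library a line. At passage 5 clone 3 lay below clone 1 in 8 of 13 S phase genes (median -0.05) and above it in 13 of 23 mitotic genes (median 0.0022). Within a passage, the median difference of clone 3 from GFP was -0.07 at passage 5 and -0.08 at passage 7 for S phase genes, and 0.04 and 0.16 for mitotic genes. When 1 library was left out these medians ran from -0.24 to 0.11 and from -0.12 to 0.30, in fits that then set 1 passage of a line against both of another.

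**Figure D5:**
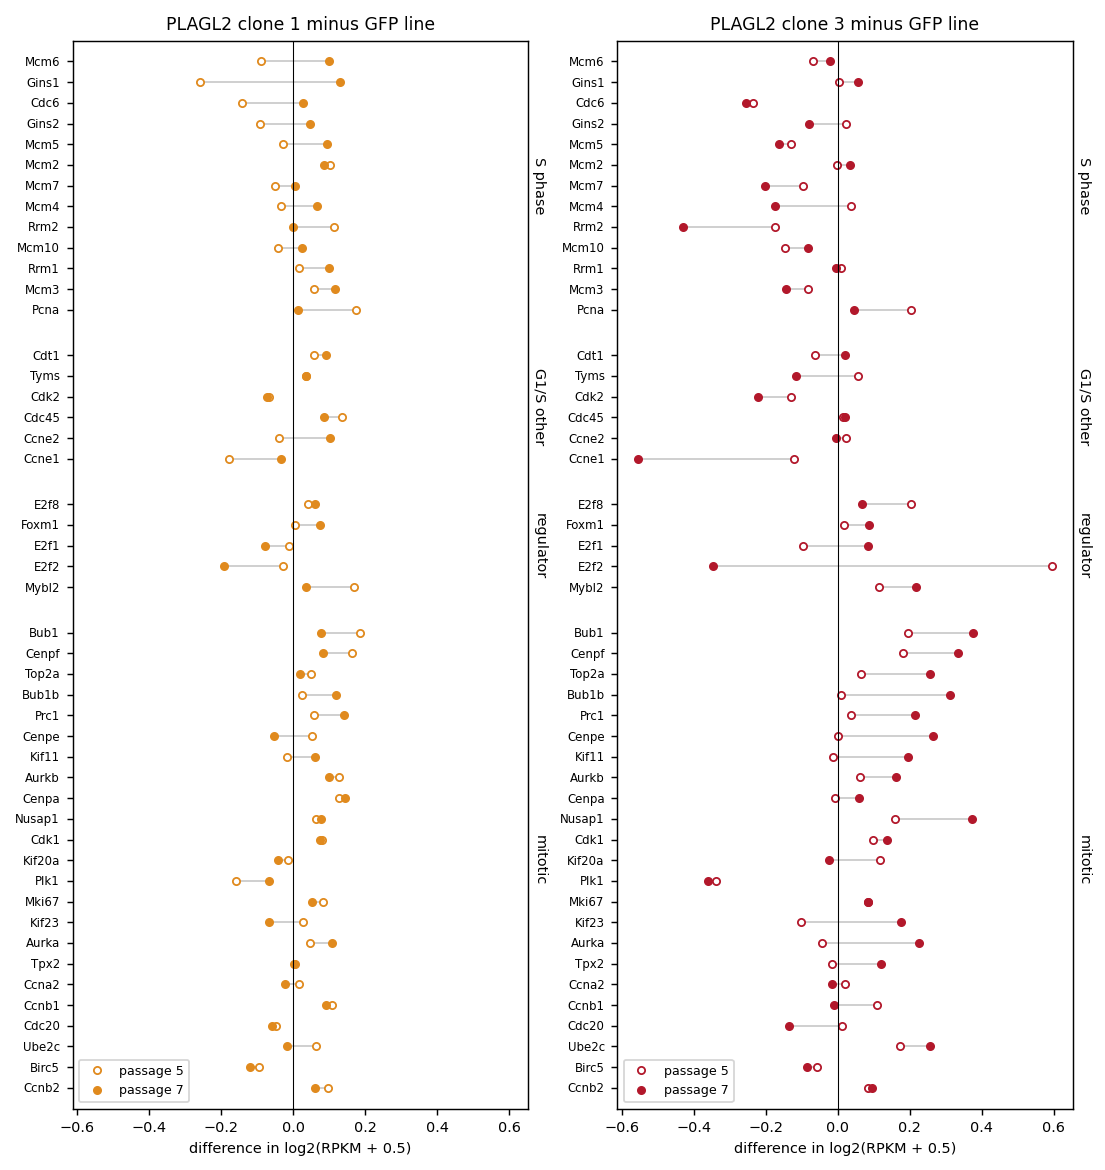
Difference from the GFP line in log2(RPKM + 0.5) (x axis) for each member in clone 1 (left) and clone 3 (right), at passage 5 (open) and passage 7 (filled), 1 library pair per dot. Plk1, Rrm2 and Cdc6 lie left of 0 at both passages in clone 3, Bub1, Cenpf, Nusap1 and Ube2c lie right of it, and E2f2 lies far right at passage 5 and left at passage 7.

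Plk1 (chromosome 7, 122159439 to 122169873, plus strand) had the largest fall in value among mitotic genes. Its RPKM was 46.6 and 58.1 in GFP at passages 5 and 7, 41.7 and 55.4 in clone 1, and 36.8 and 45.1 in clone 3. At each passage GFP was highest and clone 3 lowest. With passages pooled, both clone 3 libraries lay below both GFP libraries, and clone 1 overlapped each of these lines. The log2 difference of clone 3 from GFP was -0.35 (SE 0.19, adjusted p = 0.727), and with passage as replicate block it was -0.35 (SE 0.05, adjusted p = 0.0532). With that replicate block 2.1% of all genes were called in this comparison and still 0 members, while 10 members stood at an unadjusted p under 0.05, where 19.5% of all genes did. Of these Mcm5, Mcm7, Rrm2, Cdc6, Cdk2 and Plk1 were lower and Bub1, Cenpf, Ube2c and Nusap1 were higher in clone 3, and the share of 10 in 47 was close to that of all genes.

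Rrm2 had RPKMs of 24.2 and 32.8 in GFP, 26.2 and 32.7 in clone 1, and 21.4 and 24.2 in clone 3, the lowest line at both passages, with a log2 difference of -0.30 (SE 0.18, adjusted p = 0.777) from GFP. Cdc6 had -0.25 (adjusted p = 0.887), Ccne1 -0.34 (adjusted p = 0.710) and Cdk2 -0.17 (adjusted p = 0.920). On the other side Bub1 had 0.29 (adjusted p = 0.887), Nusap1, a spindle-associated protein gene, 0.27 (adjusted p = 0.863), Mybl2 0.17 (adjusted p = 0.865), E2f8 0.14 (adjusted p = 0.945) and Pcna 0.13 (adjusted p = 0.836). The remaining genes at the ends of their role groups lay near 0, with E2f1 at -0.01, Ccne2 at 0.01, Cdc45 at 0.02, Gins1 at 0.03, Foxm1 at 0.05 and Birc5 at -0.07. None of these values passed the test, in fits that have no passage term. With passage as replicate block the adjusted p was 0.135 for Rrm2, 0.231 for Cdc6, 0.344 for Ccne1 and 0.179 for Cdk2. On the other side it was then 0.196 for Bub1, 0.163 for Nusap1, 0.397 for Mybl2, 0.361 for E2f8 and 0.339 for Pcna.

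Among the 122 other cell cycle genes, Cdkn1c alone was called between clone 3 and GFP. It encodes the CDK inhibitor p57 (chromosome 7, 143458339 to 143461050, minus strand), and its RPKM was 2.84 and 3.04 in GFP, 4.13 and 4.66 in clone 1, and 8.70 and 7.35 in clone 3. The lines did not overlap and stood in the order of their labelled PLAGL2 levels. The log2 difference was 1.31 (SE 0.14, adjusted p = 0.0482), and it lay between 1.19 and 1.45 under the alternatives, with an adjusted p of 0.0305 to 0.286 that passed in 3 of 13. Its values rest on 81 to 280 reads per library, and exons of Gm44732 on the other strand cover 30.7% of Cdkn1c. The largest differences of the other lists did not pass: Cdkn2a 1.39 (adjusted p = 0.35, with RPKMs of 0 to 2.30), Mycn 1.30 (0.128), E2f5 0.33 (0.457), Ect2 0.31 (0.886), Skp2 0.27 (0.705), Ncaph 0.27 (0.891), Zwint 0.24 (0.449) and Cdc25b 0.23 (0.846) on the higher side, and E2f3 -0.20 (0.639), Rfc1 -0.20 (0.891), Cdkn2b -0.17 (0.977), Asf1b -0.11 (0.929) and Pttg1 -0.11 (0.938) on the lower side. Markers of other cell types differed in the same comparison. Of the goblet cell markers 3 of 6 were called lower, with a median of -1.51, all 5 Paneth cell markers had values below 0 (median -0.54, lowest adjusted p = 0.0624), and all 4 crypt stem cell markers had values above 0 (median 0.49, lowest adjusted p = 0.602). The part of these in the values of the cell cycle genes was not tested.

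Whether the passage change itself differed between the PLAGL2 lines and GFP was tested as an interaction, which called 0 members and 0.0% of all genes, in a fit with 1 residual degree of freedom. At an unadjusted p under 0.05 it again found 0 members, with 3.35% of all genes. limma-voom also called 0 members, and its share of all genes is not given. By line, the median passage change of S phase genes was 0.31 in GFP, 0.39 in clone 1 and 0.26 in clone 3. For mitotic genes it was 0.30, 0.31 and 0.40. The order of both groups was thus not the same in clone 3 as in clone 1, from 1 pair of libraries a line. E2f2 had the largest interaction value, -0.55 (SE 0.38, adjusted p = 1). The highest value above 0 was 0.22, in the S phase group. Bub1b had the highest of the mitotic group, 0.20 (SE 0.14, adjusted p = 1). Pcna had -0.16 (SE 0.09, adjusted p = 1).

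The deposited transcript table gave the same direction for most members. Summed over its transcripts, 47 of 47 members were higher at passage 7 in GFP, 47 in clone 1 and 44 in clone 3. It comes from the same reads and is not a separate measurement. Pcna-001 held 72.0% to 80.1% of the summed Pcna value over the libraries, and the 3 members that were not higher in clone 3 were Pcna, Ccne1 and E2f2.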

How the data were processed

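Polyadenylated RNA was sequenced from 6 libraries, 2 per line. The authors deposited RPKM values per gene and per transcript. Per the submitters' processing notes, edgeR, featureCounts, Subread and STAR were used with mm10; no source used here gives their roles, versions or strand setting. Repeated entries (614 of 41383 in the gene table) were dropped. Whole reads were recovered from the RPKM steps, within 0.001 of a read, for 66.3% of 25468 nonzero genes with GENCODE M21 lengths and 33.7% with a fitted length. A listed 0 allows up to 3 reads, an RPKM of 0.173 to 0.218 for a 1 kb gene; this covers counting error only.

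Values were tested as log2(RPKM + 0.5) with limma-trend (limma 3.58.1, R 4.3.3), two-sided, over 16314 genes whose RPKM reached 0.5 in 2 or more libraries, with Benjamini-Hochberg adjustment over all of them and a threshold of 0.05. This scale understates changes of low genes. Line comparisons used 3 groups (3 residual degrees of freedom), both clones against GFP 4, and passage a line term (2). Both libraries of a line come from 1 culture, so p-values measure the spread between passages, or of the passage change between lines. Replicate letters mark passages in the labels, so the letters pair the libraries by passage. Same-passage libraries deviated together (r of 0.276 to 0.322 over genes). With 2 libraries a line these deviations are the passage change itself. A difference in harvest, handling or depth between the passages cannot be told apart from passage. Medians of lists are descriptions with no test. The members, lists and motifs were chosen with earlier results of these data known. All members may be named; those given in full passed a test or lay at the ends of their role group (2 largest rises and falls), and list genes passed or were the largest rise or fall in clone 3. Knl1 was not matched. The fit was tested on simulated data. Alternatives were other pseudocounts, filters, scalings, voom, the replicate block and each library left out.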

Additional observations from a re-analysis of the deposited data

How the results depend on the processing

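The number of members higher at passage 7 was 34. It was 12 with no filter on low genes, 20 with median-ratio scaling, and 0 to 18 when 1 library was left out. Under the same scaling the median passage change was 0.24 for S phase and 0.26 for mitotic members. All 34 kept a log2 change above 0 under all 13 alternatives, and 34, 34 and 30 of them still passed with a pseudocount of 0.1, a pseudocount of 1 and quantile normalization. Of the 16314 genes tested, 1067, 1135 and 771 were called higher there, in the same order. Without the line term (no replicate block) 29 members passed, of which 25 were among the 34. In that fit 793 of all genes tested were called higher and 611 lower. For the line comparisons and the interaction 0 members passed under any alternative run, including the replicate block, which called 199 higher and 143 lower genes in clone 3 against GFP. In the line comparisons the block changed no call of a member. Line fits have no passage term, so leaving out 1 library also leaves the passages unbalanced.

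Some differences that never passed changed sign. In clone 3 against GFP, Ccne2 had -0.0254 with quantile normalization and -0.0089 with median-ratio scaling, and Cdc45 had -0.0007 with the latter. Leaving out 1 library gave ranges of -0.20 to 0.0558 for Birc5, -0.0155 to 0.59 for Bub1, -0.0532 to 0.0715 for Ccne2, -0.14 to 0.18 for Cdc45, -0.36 to 0.0097 for Cdk2, -0.18 to 0.17 for E2f1, -0.0387 to 0.31 for E2f8, -0.10 to 0.20 for Foxm1 and -0.12 to 0.18 for Gins1. In the passage comparison E2f2 ran from -0.0309 to 0.4396 and Pcna had -0.0157 with median-ratio scaling. The cause was not tested. Line fits without 1 library leave a lone sample that is assumed to vary like the other groups. In passage fits the lone library is taken up by its line term. Leaving out either library of a line then gives the same estimate, as for E2f2 without either GFP library (-0.0309). Members had 140 reads or more per library, so depth limits chiefly the least covered, Gins1.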
